A study of Mus musculus with 40 samples.

Results

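The comparison described here is that of vehicle-treated mouse uterus at 24 h and at 4 h after treatment. It rests on 10 bulk RNA-seq libraries of 40, 5 at each time, chosen by their labels alone. The mice were prepubertal and were treated on postnatal day 25, and the control groups are labelled as given PBS or saline, without saying which animal had which. The other 30 libraries, used only for contrast, form groups of 5 at the same times after doxorubicin (an anthracycline that damages DNA, given as weekly doses of 3 mg/kg), after doxorubicin with anti-Müllerian hormone (AMH, at 0.75 mg/kg), or after AMH alone. The labels name no strain and no hour of injection or harvest. Time since handling, time of day and age therefore differ together between the groups and cannot be told apart. The labels number the replicates as biological without tying each to 1 mouse, so p-values measure the spread between these libraries.

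A comparison of this kind shows how the untreated baseline moves between the sampling times. In most tissues, the uterus included, a feedback loop of transcription factors runs with a period of about a day: BMAL1 (gene Arntl) with CLOCK or NPAS2 activates genes through E-box sites, and the PER and CRY proteins among their products block that activation. The nuclear receptors REV-ERB alpha and beta (Nr1d1, Nr1d2) repress Arntl and Npas2 through ROR elements (ROREs), and the factors DBP, TEF and HLF pass the rhythm on through D-box sites, which NFIL3 represses. The prepubertal uterus also responds to oestrogen from the ovary, and any tissue responds to handling through glucocorticoids and through immediate early and heat shock genes.

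The promoters of the clock genes that moved are shown first, to describe which of these sites they hold. In the core clock and clock output lists 7 genes passed the test. Of these, 3 held an E-box (CACGTG), D-box (TTATGNAA) or RORE core (TAGGTCA) on either strand in a RefSeq promoter window (build GRCm38.p6, 250 bases before to 50 bases after a start site). These 3 are printed with the match in capitals. The Nfil3 window (chr13:52980990-52981289, minus strand) holds the RORE core read on the opposite strand, at base 239 of the window. The Arntl window (chr7:113207261-113207560, plus strand, the second of 2 start sites) holds it at base 281. The Tef window (chr15:81802423-81802722, plus strand, the first of 2) holds an E-box at base 124. The second Tef window (chr15:81811164-81811463), not printed, also holds an E-box, at base 113.
Nfil3: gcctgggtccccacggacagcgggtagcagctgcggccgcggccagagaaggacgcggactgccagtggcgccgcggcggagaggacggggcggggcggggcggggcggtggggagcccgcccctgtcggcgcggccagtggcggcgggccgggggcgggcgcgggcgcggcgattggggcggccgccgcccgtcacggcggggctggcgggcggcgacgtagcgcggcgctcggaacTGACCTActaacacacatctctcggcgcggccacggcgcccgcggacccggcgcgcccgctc
Arntl: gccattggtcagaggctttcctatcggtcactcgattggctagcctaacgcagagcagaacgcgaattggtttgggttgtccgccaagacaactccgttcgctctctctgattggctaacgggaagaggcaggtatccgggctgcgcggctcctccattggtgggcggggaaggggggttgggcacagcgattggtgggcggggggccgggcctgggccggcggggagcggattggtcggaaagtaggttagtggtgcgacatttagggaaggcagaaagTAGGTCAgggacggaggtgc
Tef: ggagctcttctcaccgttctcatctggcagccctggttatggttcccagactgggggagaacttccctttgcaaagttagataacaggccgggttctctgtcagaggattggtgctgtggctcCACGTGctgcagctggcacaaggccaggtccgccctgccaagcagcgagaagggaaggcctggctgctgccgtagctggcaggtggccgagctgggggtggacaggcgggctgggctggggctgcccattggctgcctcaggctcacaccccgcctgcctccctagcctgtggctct
Of 32851 mouse windows of this length, 2.61% hold the RORE core, 7.15% the E-box and 3.38% the D-box. No match to these 3 motifs, to the cyclic AMP element (TGACGTCA, in 1.79% of windows) or to the full oestrogen element (in 0.07%) was found in the windows of Npas2, Dbp, Nr1d1 and Nr1d2. The RORE core shares its last bases with an arm of the oestrogen element. A match is a description of the letters, and none of the libraries measured binding.

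Across the transcriptome, 133 of 13993 genes tested (0.950%) differed between the times, 87 higher at 24 h (0.622%) and 46 lower (0.329%). The test was limma on log2(FPKM + 1), FPKM being a fragment count corrected for transcript length and for depth, and a gene is called here when its Benjamini-Hochberg adjusted p fell under 0.05. Before adjustment, p was under 0.05 for 2603 genes. The median log2 change over all genes was 0.03. Every called gene had groups that did not overlap, as did 3.38% of all genes with 24 h higher and 2.15% with 24 h lower. The 79 protein-coding genes among those higher and 42 among those lower hold most of the calls. With voom on reads rebuilt from the FPKM values the split was 54 higher and 60 lower. Left out in turn, 4 h libraries 1 to 5 gave 23, 19, 38, 16 and 12 calls and 24 h libraries 1 to 5 gave 34, 28, 484, 75 and 62.

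The 24 h libraries differed more among themselves than the 4 h ones. The median gene had an SD of 0.279 at 24 h and of 0.166 at 4 h on the log2 scale, and the first principal component, with 47.3% of the variance, set 24 h libraries 1, 2 and 4 (scores 33, 57.7 and 32.2) apart from libraries 3 and 5 (-33.2 and -22.1). The depth was 18101414 to 27364773 reads in genes at 4 h and 16828077 to 27391049 at 24 h. Mitochondrial genes took 2.1% to 4.09% and 1.94% to 2.42% of them. Without 24 h libraries 1, 2 and 4 the test called 366 genes, and without libraries 3 and 5 it called 4377. That split was drawn from the values of these same libraries. The counts and changes given for it, here and below, are therefore no separate evidence.

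Genes of the circadian clock and its output moved in both directions. Nfil3, the repressor at D-box sites, and the activators Arntl and Npas2 rose, while Dbp and Tef, the activators at D-box sites, and the REV-ERB genes Nr1d1 and Nr1d2 fell. In the core clock list 2 of 18 tested genes rose and 2 fell, and in the clock output list 1 of 20 rose and 2 fell, against 0.622% and 0.329% of all genes. The median changes of the lists, 0.08 and 0.03, were near the 0.03 of all genes, since members moved both ways. Bhlhe41 fell under the filter on low values.

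Nfil3 (ENSMUSG00000056749, chromosome 13, 52967209 to 52981073, minus strand, build mm10) had the smallest p of all genes. It was at 4.56, 4.61, 3.92, 4.8 and 3.28 FPKM in 4 h libraries 1 to 5 and at 29, 19.8, 27.1, 19.4 and 28.5 FPKM in 24 h libraries 1 to 5. All 5 libraries at 24 h lay far above all 5 at 4 h, with means of 4.23 ± 0.628 and 24.8 ± 4.76 FPKM (SD, n = 5 each), and Nfil3 rose by a log2 of 2.29 with an SE of ± 0.14 (adjusted p = 9.48e-05 by limma). Arntl (chromosome 7, 113207465 to 113314126), the activator that forms the positive arm of the loop, was at 1.34, 2.04, 1.45, 1.39 and 1.76 FPKM at 4 h and at 3.63, 4.56, 4.59, 3.93 and 4.67 FPKM at 24 h. The groups were again apart, and Arntl rose by a log2 of 1.03 ± 0.11 (limma adjusted p = 0.00454). Npas2 (chromosome 1, 39193731 to 39363236), which can take the place of CLOCK beside BMAL1, rose from 2 ± 0.288 to 5.29 ± 0.978 FPKM (log2 change 1.06 ± 0.13). Clock itself did not pass the test, at 6.54 ± 0.707 and 7.91 ± 0.874 FPKM (limma adjusted p = 0.232).

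Dbp (ENSMUSG00000059824, chromosome 7, 45705088 to 45710203, plus strand), an activator of output genes, fell by more than any other clock gene. It was at 39.8, 37.5, 64.4, 48.6 and 50.5 FPKM in 4 h libraries 1 to 5 and at 4, 2.6, 13.1, 3.64 and 9.9 FPKM at 24 h. The groups did not overlap, and the log2 change was -2.86 ± 0.35 (limma adjusted p = 0.00823). Within the 24 h group, libraries 3 and 5 were the highest. Nr1d1 (chromosome 11, 98767932 to 98775333), which encodes REV-ERB alpha, was at 42.1, 39.4, 61.8, 49.6 and 64.8 FPKM at 4 h and at 8.46, 4.41, 19.8, 7.43 and 12.9 FPKM at 24 h, a log2 change of -2.3 ± 0.31 (limma adjusted p = 0.0145). The order within 24 h was that of Dbp, with libraries 3 and 5 on top.

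Tef fell from 23.2 ± 3.05 to 8.83 ± 4 FPKM (log2 change -1.39 ± 0.25, limma adjusted p = 0.0364) and Nr1d2, which encodes REV-ERB beta, from 29.4 ± 4.52 to 10.8 ± 6.3 FPKM (-1.5 ± 0.3, adjusted p = 0.0485). Libraries 3 and 5 at 24 h were again the highest, with Nr1d2 at 19.9 and 14.9 FPKM against 5.42 to 7.51 FPKM in the other 3. Per3, a period gene whose groups did not overlap either, missed the threshold at 6.52 ± 2.21 and 1.92 ± 1.44 FPKM (adjusted p = 0.0635). The D-box activator Hlf averaged 5.18 ± 1.05 and 2.63 ± 1.65 FPKM (adjusted p = 0.151), and Ciart, a repressor of the BMAL1 complex, 2.04 ± 0.963 and 0.783 ± 0.246 FPKM (adjusted p = 0.141).

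The other period and cryptochrome genes were mixed and none passed. Cry1 averaged 5.06 ± 0.777 FPKM at 4 h and 9.96 ± 3.22 at 24 h (limma adjusted p = 0.087), and Cry2 7.67 ± 1.52 and 5.08 ± 2.21 FPKM (adjusted p = 0.228). Per1 was at 11.3, 7.68, 20.5, 13.7 and 21.1 FPKM in 24 h libraries 1 to 5 against 5.52 to 8.84 FPKM at 4 h (adjusted p = 0.151), and Per2 averaged 5.76 ± 1.23 and 7.97 ± 2.22 FPKM (adjusted p = 0.279). Per1 is also induced directly by glucocorticoids, and its highest 24 h libraries were 3 and 5.

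The calls of Nfil3, Arntl, Npas2 and Dbp were kept without any single library. The call of Nr1d1 was lost without 4 h library 4 or 5 (adjusted p up to 0.059), that of Tef without any 4 h library or 24 h library 1, 2 or 4 (up to 0.11), and that of Nr1d2 without any library other than 24 h library 3 (up to 0.14). Without 24 h libraries 1, 2 and 4, Dbp changed by a log2 of -1.96 and Nr1d2 by -0.73 (adjusted p = 0.055), and without libraries 3 and 5 by -3.47 and -2.02. Dbp is overlapped by the coding gene Sphk2, Nr1d1 by Thra and Per3 by Camta1, and reads in the overlap cannot be assigned without strand.

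**Figure D1:**
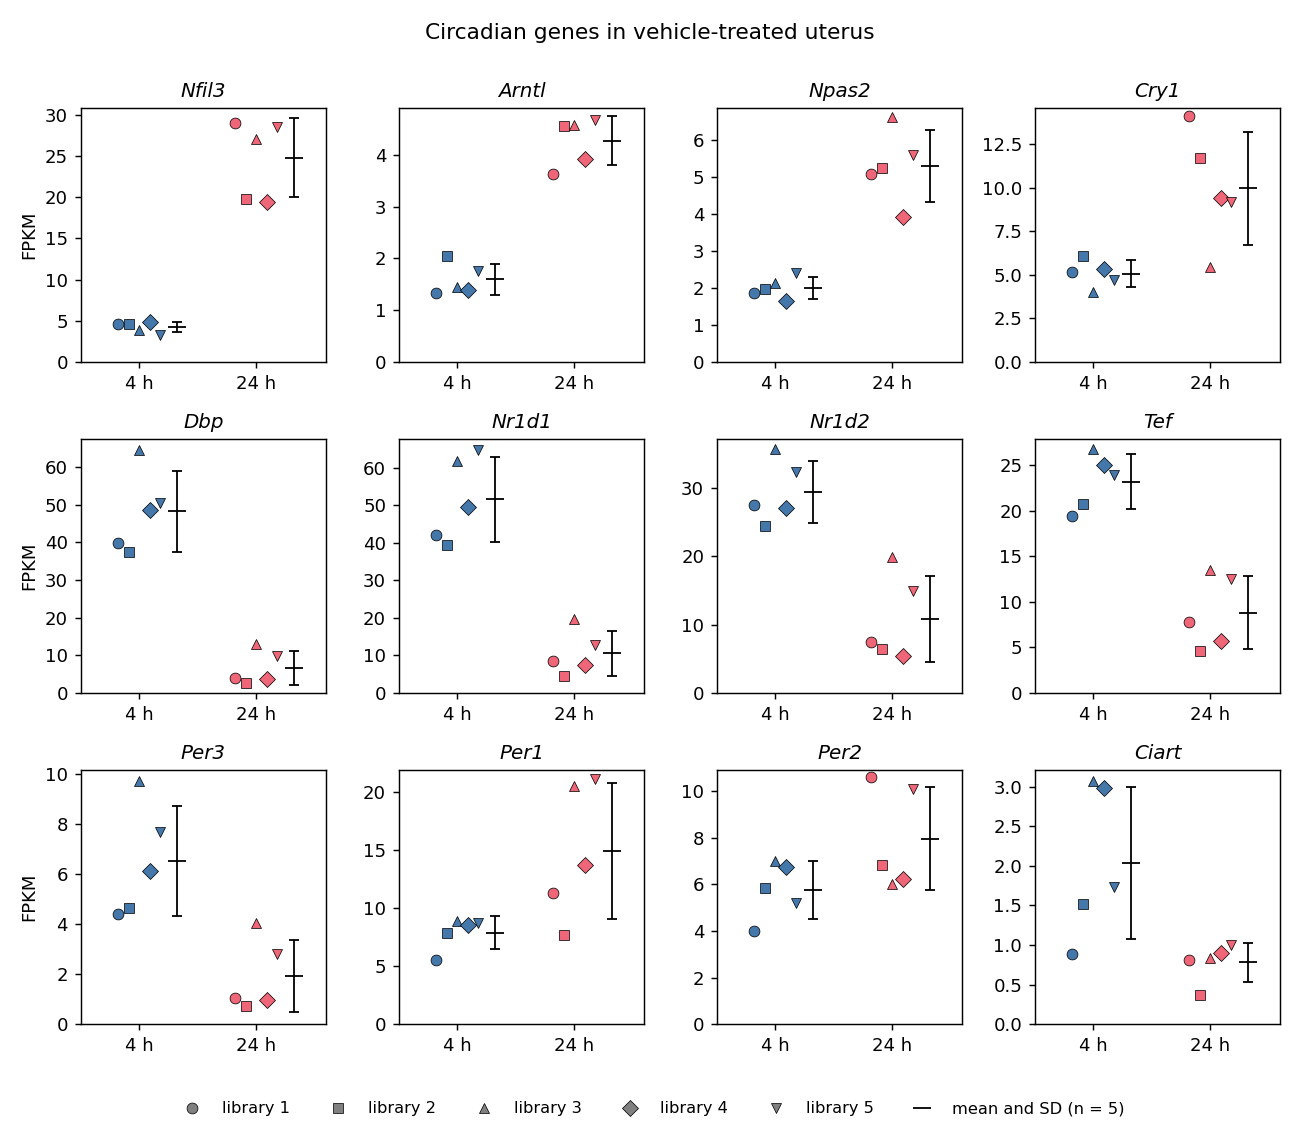
FPKM of 12 clock genes in each vehicle library at 4 h (blue) and 24 h (red), one symbol per library number, with the mean and SD (n = 5) beside each group. Nfil3, Arntl and Npas2 lie higher at 24 h with no overlap, Dbp, Nr1d1, Nr1d2, Tef and Per3 lie lower with no overlap, and 24 h libraries 3 and 5 (triangles) are the highest of the 24 h group for Dbp, Nr1d1, Nr1d2, Tef, Per3 and Per1.

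Each of the other treatments has 10 libraries of its own, so the same time change can be read in libraries that the vehicle comparison did not use. The 7 genes of the core clock and clock output lists called in vehicle moved in the same direction in all 3 other treatments. In the AMH libraries 6 of 7 were called (0.843% of all genes were called there, 68 higher, 0.486%, and 50 lower, 0.357%), in the doxorubicin libraries 7 of 7 (1.22% in all, 0.457% higher and 0.765% lower), and in the doxorubicin with AMH libraries 3 of 7. Those 3, Nfil3, Arntl and Npas2, were the only genes called in that treatment (0.0214% higher and 0% lower). At an unadjusted p under 0.05 there were 1312.

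Nfil3 rose from 3.52 ± 1.96 to 11.2 ± 1.11 FPKM after AMH (log2 change 1.52 ± 0.23), from 3.92 ± 1.54 to 18.6 ± 5.94 FPKM after doxorubicin (1.99 ± 0.24) and from 3.3 ± 0.728 to 9.01 ± 1.79 FPKM after both (1.22 ± 0.14). The change in vehicle was larger than after both agents by 1.07 ± 0.2 (limma interaction, adjusted p = 0.0476), a call lost under 19 of 24 alternatives (adjusted p up to 0.11), and the differences from AMH alone (0.77 ± 0.28, adjusted p = 0.271) and from doxorubicin (0.3 ± 0.29, adjusted p = 0.707) did not pass. Dbp went from 91.1 ± 18.5 to 9.88 ± 4.78 FPKM after AMH, from 78.5 ± 20.3 to 13.6 ± 4.56 FPKM after doxorubicin and from 76.2 ± 17.8 to 20.3 ± 7.79 FPKM after both. Its interaction with each treatment missed the threshold (adjusted p = 0.848, 0.749 and 0.46), as did those of Arntl (0.963, 0.547 and 0.71). The 4 h mean of Dbp was lower in vehicle, 48.2 ± 10.7 FPKM, than in the other treatments, a difference not tested here.

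Genes of the response to glucocorticoids, the adrenal hormones of stress and of the daily cycle, were mostly higher at 24 h. Of 21 tested 2 rose, against 0.622% of all genes. The list's median log2 change was 0.70 and 18 of 21 members lay above 0, against 0.03 and 7657 of 13993 for all genes. Its mean log2(FPKM + 1) per library was 3.37 to 3.54 at 4 h and 4.03 to 4.33 at 24 h, without overlap. Errfi1 (ENSMUSG00000028967, chromosome 4, 150853919 to 150868892), which encodes a feedback inhibitor of the EGF receptor, was at 14.5, 14, 16.1, 17.2 and 13.9 FPKM at 4 h and at 49.5, 52, 69.1, 38.5 and 62.9 FPKM at 24 h. Each 24 h library was above every 4 h library, and Errfi1 rose by a log2 of 1.76 ± 0.15 (limma adjusted p = 0.000873). It is also the called member of the progesterone list, of whose 14 tested genes 1 rose, against 0.622% of all genes.

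Cebpd, a transcription factor of the acute phase, rose from 5.91 ± 0.728 to 13.1 ± 2.6 FPKM (log2 change 1.01 ± 0.13, limma adjusted p = 0.0125), a call lost without 4 h library 5 (adjusted p = 0.056). Below the threshold but without overlap were Dusp1, a phosphatase that shuts off MAP kinases (7.75 ± 0.951 and 13.7 ± 3.4 FPKM), Angptl4, an inhibitor of lipoprotein lipase (18.4 ± 5.61 and 33.8 ± 4.82 FPKM), and Zbtb16, a zinc finger repressor. Zbtb16 was at 0.526 to 1.39 FPKM at 4 h and at 3.47, 1.77, 14.5, 5.67 and 13.4 FPKM at 24 h (limma adjusted p = 0.0763), and Tsc22d3, which encodes the glucocorticoid-induced leucine zipper, was at 13.8 to 16.3 FPKM at 4 h and at 21.3, 14, 63.9, 17.6 and 35.8 FPKM at 24 h (adjusted p = 0.246). For both genes 24 h libraries 3 and 5 were the highest. Fkbp5, a chaperone of the receptor, averaged 1.4 ± 0.481 and 2.59 ± 1.38 FPKM (adjusted p = 0.288), and its highest 24 h libraries were 4 and 2. Without 24 h libraries 1, 2 and 4 the list had 7 members called higher and none lower, where 1.49% and 1.12% of all genes were called. Without libraries 3 and 5 it had 10 higher and 3 lower, where 18.4% and 12.8% of all genes were called, so that the share lower was near that of all genes.

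Of 32 immediate early genes tested 3 rose, Jun, Ctgf and Cyr61, against 0.622% of all genes. The list median was 0.39. Jun (ENSMUSG00000052684, chromosome 4, 95049034 to 95052222), a subunit of the AP-1 transcription factor, was at 36.6, 36.4, 40.7, 39.7 and 34.2 FPKM at 4 h and at 93, 110, 101, 63.3 and 94.9 FPKM at 24 h. The 4 h libraries were close together and the 24 h ones all higher, by a log2 of 1.26 ± 0.14 (limma adjusted p = 0.00459). Cyr61, a matricellular ligand of integrins and a target of YAP, rose from 6.96 ± 2.17 to 39.2 ± 24.6 FPKM (2.21 ± 0.33, adjusted p = 0.0224). Library 2 at 24 h was at 81.9 FPKM and the others between 21.2 and 36.9 FPKM. Its relative Ctgf rose from 5.17 ± 0.787 to 18.1 ± 6.2 FPKM (1.57 ± 0.22, adjusted p = 0.0176).

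The call of Ctgf was lost without 4 h library 1, 2, 4 or 5 (adjusted p up to 0.064) and that of Cyr61 without 4 h library 2, 4 or 5 or 24 h library 1 (up to 0.071). Amotl2, a regulator and target of YAP named after its values were seen, rose from 7.77 ± 0.731 to 16.5 ± 2.93 FPKM (limma adjusted p = 0.00753), and its call was kept without any single library. Egr1, another immediate early gene, lay the other way without passing the test, at 14.1 ± 0.914 FPKM at 4 h and 8.83 ± 2.27 FPKM at 24 h (adjusted p = 0.0827). The list was thus not uniform, with 23 of 32 members above 0, beside 7657 of 13993 for all genes.

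All 19 cytosolic heat shock genes, the chaperones of unfolded proteins and their partners, had a higher mean log2 value at 24 h. Of all genes, 7657 of 13993 did. Of the 19 genes 4 rose, against 0.622% of all genes. Hspa1a (chromosome 17, 34969190 to 34972156), the inducible HSP70, was at 4.12, 6.75, 7.39, 4.83 and 4.55 FPKM at 4 h and at 29.3, 22.1, 15.5, 10.7 and 21.7 FPKM at 24 h. No 24 h library reached down to the 4 h range, and the log2 change was 1.63 ± 0.24 (limma adjusted p = 0.0224). Hsph1, an exchange factor of HSP70, rose from 9.89 ± 2.06 to 38.8 ± 21.6 FPKM with library 1 at 75.4 FPKM, Dnaja1, a J-domain partner, from 27.9 ± 2.7 to 58.7 ± 15.8 FPKM, and Chordc1, a partner of HSP90, from 8.45 ± 0.482 to 18.3 ± 6.51 FPKM. The list median was 0.63.

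Library 3 at 24 h had the lowest heat shock score of its group, 5.57, equal to that of 4 h library 4, and library 1 the highest, 6.81. Hspa8, the constitutive member, averaged 332 ± 39.1 and 637 ± 205 FPKM (limma adjusted p = 0.0694). The calls were lost without 4 h library 1, 2, 4 or 5 or 24 h library 2 for Hspa1a, without any 4 h library or 24 h library 2 for Dnaja1, without any library other than 24 h libraries 1 and 3 for Hsph1, and without any other than 24 h library 3 for Chordc1 (adjusted p up to 0.14). Without 24 h libraries 1, 2 and 4 the list median was 0.04 with 4 of 19 members called higher (1.49% of all genes), and without libraries 3 and 5 it was 1.06 with 18 of 19 called higher (18.4% of all genes). Hspa1a and its copy Hspa1b are nearly identical in sequence, Hspa1a is overlapped by the gene model Gm20481 and Dnaja1 by Smu1, so their shares of reads are uncertain.

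**Figure D2:**
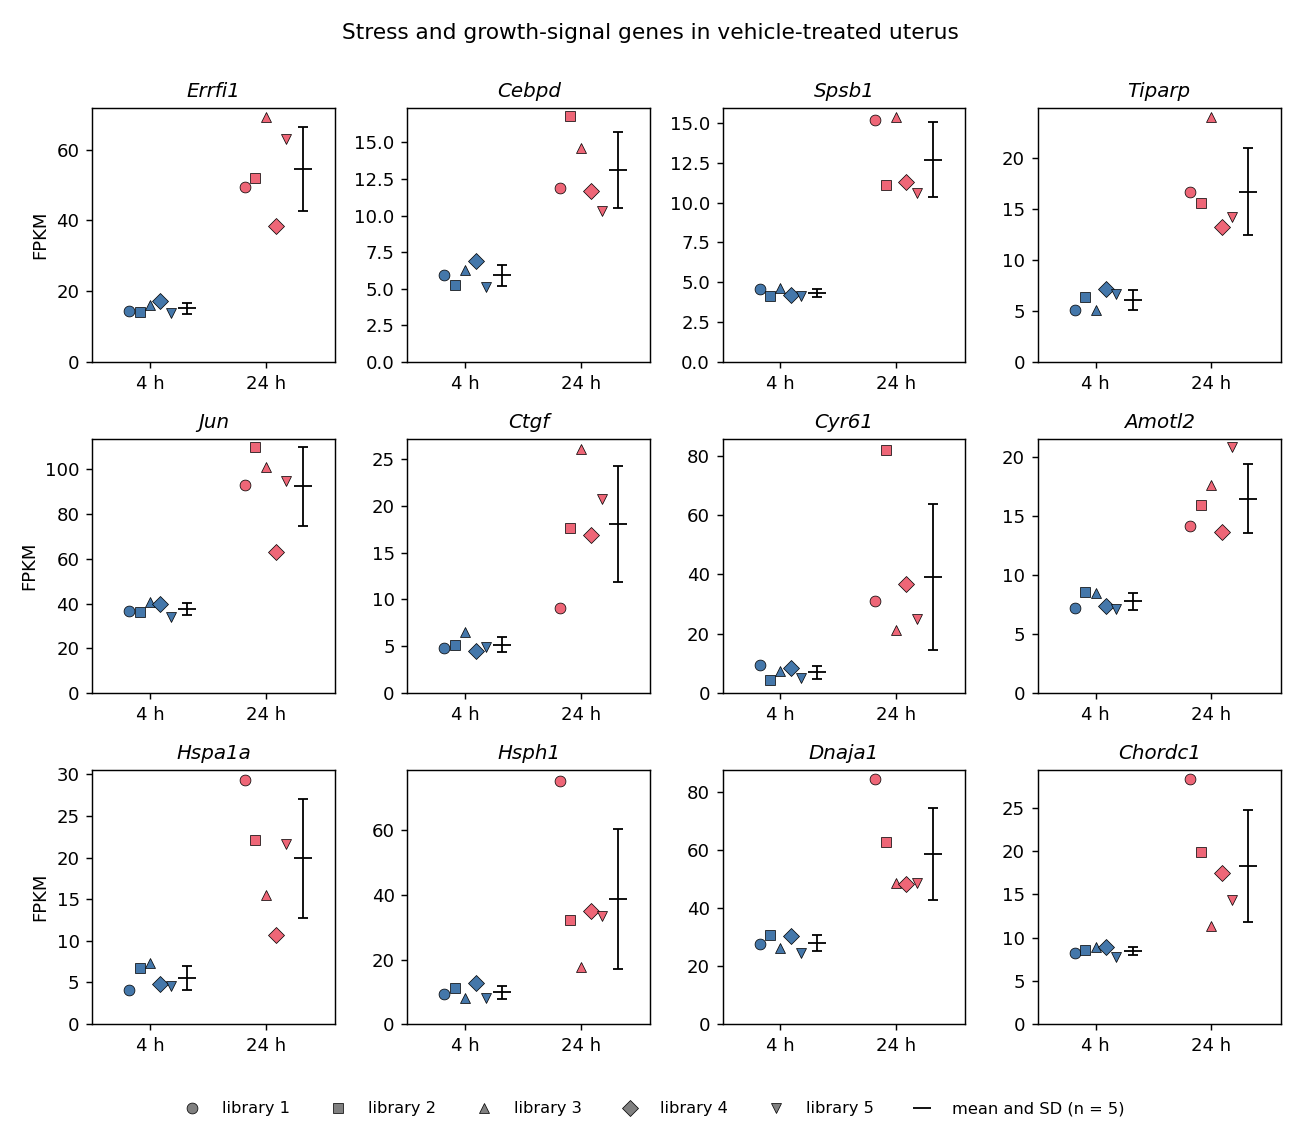
FPKM of 12 genes in each vehicle library at 4 h (blue) and 24 h (red), with a symbol per library number and the mean and SD (n = 5). They are glucocorticoid-responsive, immediate early, YAP-related and heat shock genes, and Spsb1 and Tiparp, which belong to none of these classes. In every panel the 24 h libraries lie above the 4 h ones without overlap, and library 1 at 24 h is the highest for Hspa1a, Hsph1, Dnaja1 and Chordc1.

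Several rising genes belong to none of these lists or to lists with 1 call. Spsb1, an adaptor of a ubiquitin ligase, was at 4.13 to 4.62 FPKM at 4 h and at 15.2, 11.1, 15.4, 11.3 and 10.6 FPKM at 24 h, a log2 change of 1.35 ± 0.12 (limma adjusted p = 0.000873). Tiparp, a target and inhibitor of the aryl hydrocarbon receptor, rose from 6.06 ± 0.95 to 16.7 ± 4.26 FPKM, and Banp, a nuclear matrix-binding protein, from 3.52 ± 0.873 to 9.8 ± 1.01 FPKM. The calls of all 3 were kept without any single library. Banp is overlapped by the gene model Gm20388.

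Smooth muscle genes had 1 of 15 members called higher, Myocd, the coactivator that drives contractile genes, against 0.622% of all genes. All 15 lay above 0 with a median of 0.30, beside 7657 of 13993 and 0.03 for all genes. Myocd rose from 4.48 ± 0.714 to 8.9 ± 1.16 FPKM (log2 change 0.86 ± 0.12, limma adjusted p = 0.0145; 0.052 without 4 h library 4). The contractile actin Actg2, a target of myocardin, was at 401 to 544 FPKM at 4 h and at 732, 1017, 417, 703 and 442 FPKM at 24 h (adjusted p = 0.321), so its groups overlapped. In bulk tissue, more cells of a type and more RNA per cell cannot be told apart. Eln, which encodes elastin, was the 1 called gene of 33 in the extracellular matrix list, where 0.622% of all genes were called higher. Its means were 31.2 ± 5.39 and 73.9 ± 24.9 FPKM (limma adjusted p = 0.0449). The call was lost without any library other than 24 h library 3 (up to 0.13).

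Hedgehog pathway genes were lower on average without passing the test. Ptch1, the receptor of hedgehog ligands, was at 7.45 ± 0.613 and 3.94 ± 1.79 FPKM (limma adjusted p = 0.0908), and Gli1, a transcription factor and target of that pathway, at 26.3 ± 2.9 and 15.4 ± 11.6 FPKM (adjusted p = 0.251). In both genes 24 h libraries 3 and 5 were the highest of their group, with Gli1 at 21.9 and 32.1 FPKM against 2.91 to 11.6 FPKM in the others.

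Lrrn3, a leucine-rich repeat membrane protein, fell from 2.25 ± 0.761 to 0.478 ± 0.281 FPKM, Lyz1, a lysozyme, from 2.63 ± 0.574 to 0.869 ± 0.425, Prrg1, a membrane protein with a Gla domain, from 5.01 ± 0.604 to 2.26 ± 0.756, Apobec1, a cytidine deaminase that edits RNA, from 5.18 ± 1.57 to 2.07 ± 0.574, and Adora1, an adenosine receptor, from 2.49 ± 0.853 to 0.641 ± 0.39. Named after their values were seen were Has2, a hyaluronan synthase (2 ± 0.279 to 0.721 ± 0.242 FPKM), Lefty1, an inhibitor of nodal signalling (5.23 ± 0.256 to 2.75 ± 0.654), Podxl, a sialomucin (37.4 ± 4.03 to 21 ± 4.07), Jag2, a Notch ligand (7.56 ± 1.73 to 3.77 ± 0.832), and Smad6, an inhibitor of BMP signalling (9.8 ± 0.603 to 6.69 ± 0.765). Each of these calls was lost when any single 4 h library was left out and without 1 or more of the 24 h libraries (limma adjusted p up to 0.15). Lrrn3 is overlapped by the coding gene Immp2l and Adora1 by Mybph.

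**Figure D3:**
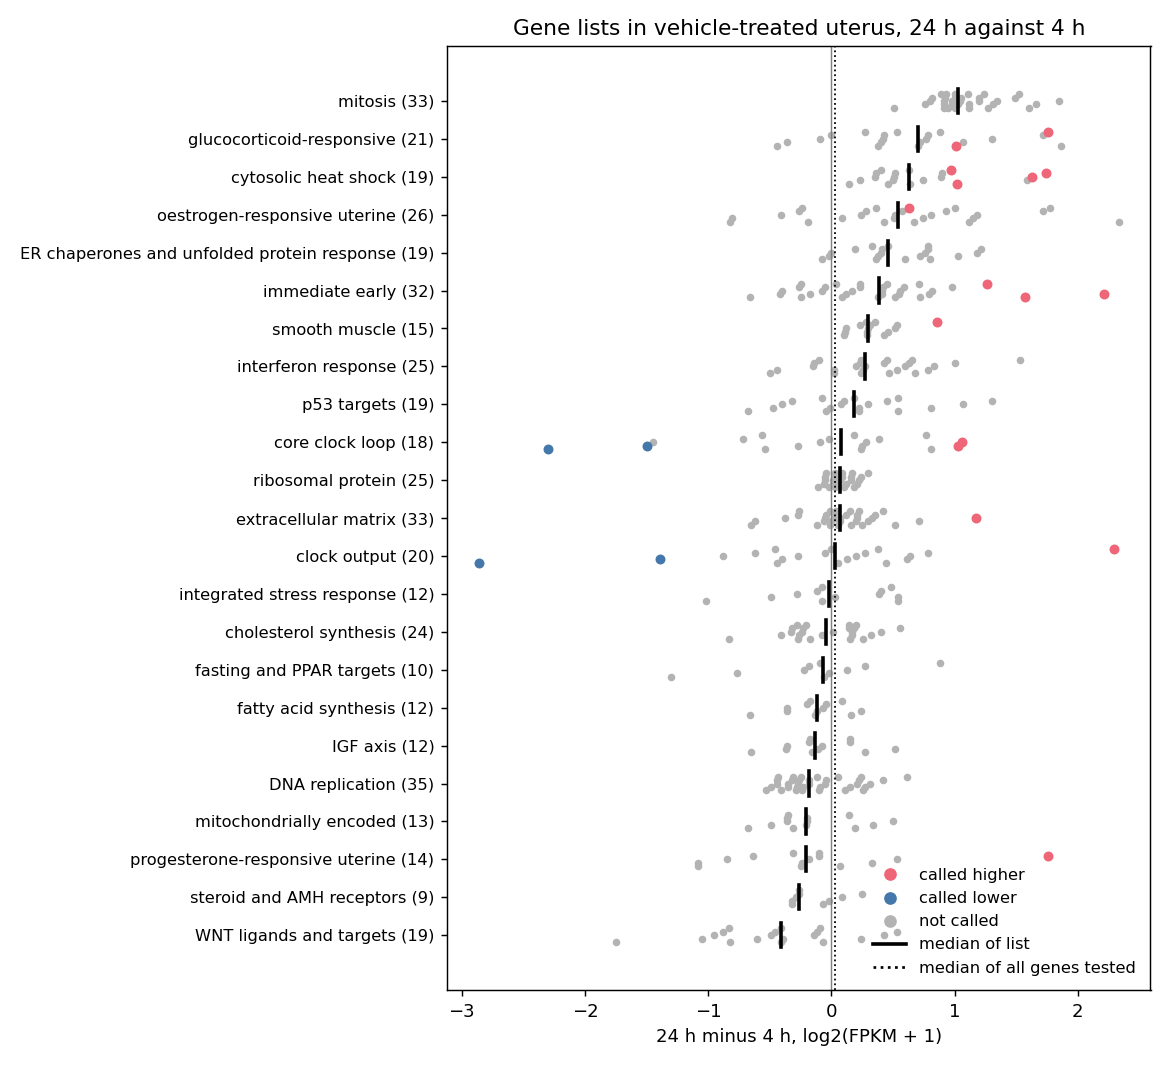
Log2 change from 4 h to 24 h, on the log2(FPKM + 1) scale, of each tested member of 23 gene lists in vehicle uterus, with the number tested in parentheses, called members coloured and the list median as a black bar. The dotted line is the median of all genes, 0.03, of which 0.950% were called. Mitosis genes lie all to the right with none called, heat shock genes all to the right with 4 called, and the clock lists reach from Dbp at -2.86 to Nfil3 at 2.29.

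Oestrogen-responsive genes differed widely among the 24 h libraries. Of 26 tested, 1 rose, Greb1, a cofactor of the oestrogen receptor, against 0.622% of all genes. Greb1 was at 5.95 ± 1.22 and 9.66 ± 1.2 FPKM (limma adjusted p = 0.0487, and up to 0.14 without any single library other than 4 h library 4 or 24 h library 3). The list score was 3.94 to 4.66 at 4 h and 5.52, 6.1, 3.65, 5.31 and 4.06 in 24 h libraries 1 to 5. Libraries 1, 2 and 4 lay above every 4 h library, library 3 below every one, and library 5 within their range. Ltf, which encodes the secreted iron binder lactoferrin, was at 27.7 to 92.9 FPKM at 4 h and at 362, 789, 22.4, 201 and 26 FPKM at 24 h (adjusted p = 0.497), and for Lcn2, which encodes lipocalin 2, and Sprr2f, a cornified envelope gene of a family of near-identical copies, libraries 3 and 5 were likewise the lowest of the 24 h group. The receptor gene Esr1 averaged 46.3 ± 2.08 and 45.9 ± 5.48 FPKM (adjusted p = 0.935), Pgr, the progesterone receptor, 52.7 ± 4.44 and 44.2 ± 5.31 FPKM (adjusted p = 0.232), and Amhr2, the AMH receptor, 3.39 ± 0.736 and 2.74 ± 1.47 FPKM (adjusted p = 0.535).

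The 15 markers of uterine epithelium moved with this score, at 6.44, 6.9, 5.27, 6.03 and 5.39 in 24 h libraries 1 to 5 against 5.43 to 5.85 at 4 h, with a summed level of 1156 to 1550 FPKM at 4 h and 1038 to 3912 FPKM at 24 h. All 15 were above 0 in every library, led by Wfdc2, Krt8 and Krt19, and the 13 stromal markers (Hoxa10 and Pdgfra among them) were also present, at scores of 5.71 to 6.03 at 4 h and 5.2, 5.03, 6.07, 5.35 and 5.88 at 24 h. The part of the epithelial share in the oestrogen-responsive values was not tested. Without 24 h libraries 1, 2 and 4 none of the 26 oestrogen-responsive genes rose and 2 fell, where 1.49% and 1.12% of all genes were called. Without libraries 3 and 5 there were 17 higher and 3 lower, where 18.4% and 12.8% of all genes were called, so that the share lower was not above that of all genes. The medians were -0.47 and 1.25, and those of the epithelial markers -0.35 and 0.82. The libraries left out are those high or low in the oestrogen score itself, with which the epithelial markers moved. These counts and medians therefore restate that split and are no separate evidence.

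The 24 h libraries that were high in the oestrogen score, 1, 2 and 4, were those with the lowest Dbp, Nr1d1, Nr1d2, Tef and Per3, and libraries 3 and 5 were those with the highest Per1, Tsc22d3, Zbtb16 and Errfi1. With the oestrogen score as a covariate, Dbp changed by a log2 of -2.42 (limma adjusted p = 6.8e-05), Per1 by 1.06 (adjusted p = 0.0022), Tsc22d3 by 1.2 (0.0017) and Zbtb16 by 2.39 (0.00039), and 604 genes were called. That covariate is itself a measured outcome of the same libraries, and with 5 libraries a group no correlation is given.

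Mitosis genes had no member called among 33, where 0.950% of all genes were called. All 33 lay above 0 with a median of 1.03, beside 7657 of 13993 and 0.03 for all genes. Mki67, a marker of dividing cells, was at 7.62, 9.47, 1.51, 0.941 and 7.62 FPKM at 4 h and at 3.35, 19.8, 9.38, 40.2 and 8.29 FPKM at 24 h (limma adjusted p = 0.301). The 4 h libraries 3 and 4 were low, the 24 h libraries 2 and 4 were high, and the groups overlapped. Ccnb1, the mitotic cyclin, had the same pattern at 1.59 ± 1.24 and 7.42 ± 6.45 FPKM (adjusted p = 0.182), and so did Top2a, which untangles DNA, at 9.17 ± 6.25 and 20.7 ± 20.2 FPKM (adjusted p = 0.463). The DNA replication list had 0 of 35 called and a median of -0.18, on the other side of the all-gene median. No list was tested as a whole.

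**Figure D4:**
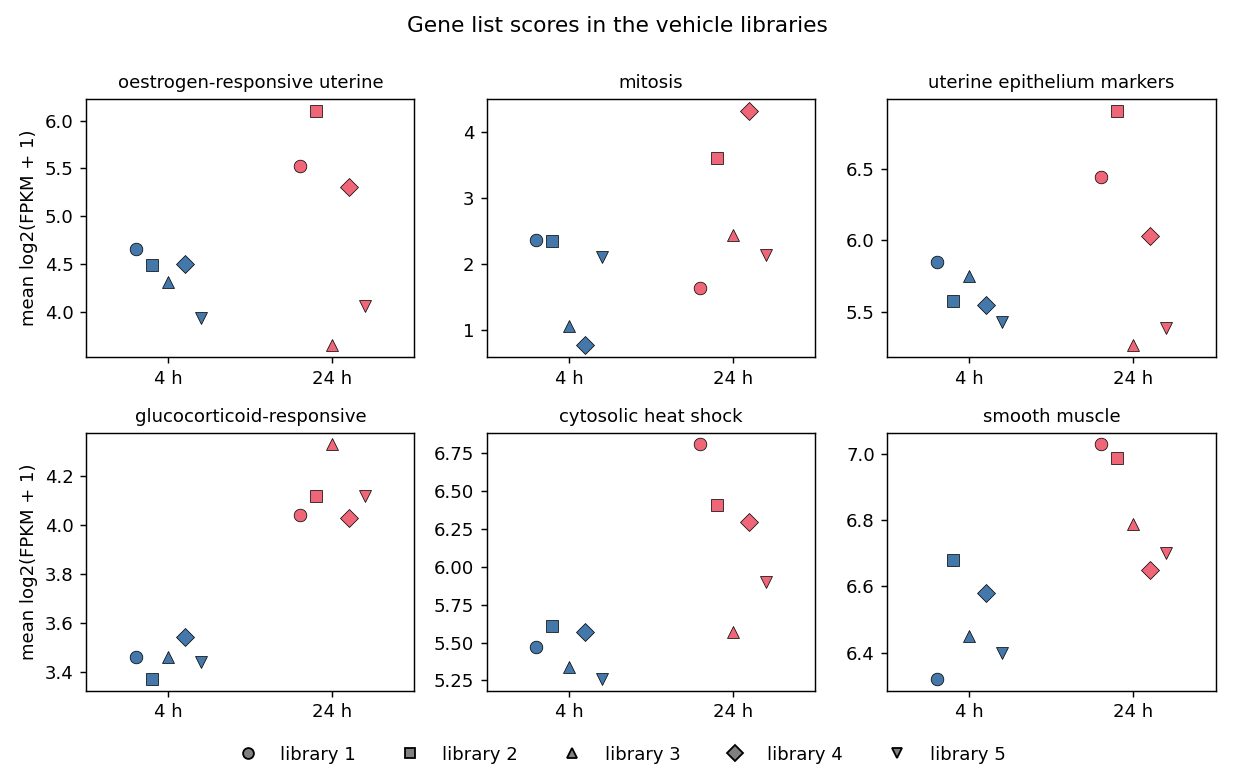
Mean log2(FPKM + 1) of the tested members of 6 gene lists in each vehicle library at 4 h (blue) and 24 h (red), one symbol per library number. The oestrogen-responsive and epithelial scores of 24 h libraries 3 and 5 (triangles) lie apart from those of libraries 1, 2 and 4, the glucocorticoid-responsive scores do not overlap between the times, and the mitosis scores are highest in 24 h libraries 4 and 2.

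Some other lists were checked for RNA of neighbouring tissue. Oviduct and ciliated cell markers were highest in 4 h library 4, where Ovgp1 reached 106 FPKM (at most 29.5 FPKM at 24 h), and Foxj1 reached 6.53 FPKM at 4 h and 1.25 FPKM at 24 h. Ovary markers were highest in 24 h library 4, with a summed level of 68 FPKM against 5.56 to 12 FPKM in the other 24 h libraries and 10.8 to 15.8 FPKM at 4 h, and Hsd3b1, a steroid-making enzyme, reached 15.7 FPKM at 24 h and at most 0.371 FPKM at 4 h. Adipocyte markers summed to 57.7 to 296 FPKM at 4 h and 47.9 to 116 FPKM at 24 h, and erythrocyte markers to 83.7 to 317 FPKM and 32.9 to 118 FPKM, each highest in 4 h library 1. None of the tested members of these lists (5 of 13, 3 of 13, 7 of 10 and 4 of 6) was called, where 0.950% of all genes were. The skeletal muscle gene Myh4 was at 0 in all 10 libraries. Their part in the results above was not tested.

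For some of the named genes the time change differed between vehicle and AMH alone. The interaction test called 36 genes, 21 with a higher log2 change in vehicle (0.150% of all genes) and 15 with a lower one (0.107%), and the same 10 vehicle libraries enter it as entered the comparison above. Errfi1 was at 21.6 ± 4.21 FPKM at 4 h and 18.7 ± 4.02 FPKM at 24 h after AMH, so the vehicle change exceeded that after AMH by a log2 of 1.96 ± 0.22 (limma interaction, adjusted p = 0.000668). Ctgf was at 17.5 ± 1.88 and 10.3 ± 3.31 FPKM after AMH (difference of changes 2.32 ± 0.3, adjusted p = 0.00182) and Jun at 77.2 ± 6.12 and 69.5 ± 17.8 FPKM (1.45 ± 0.23, adjusted p = 0.0274). All 3 had 4 h means after AMH above those of vehicle at 4 h (15.1, 5.17 and 37.5 FPKM), a difference not tested here. The heat shock gene Hsph1 rose after AMH as well, by a log2 of 1.74 (limma adjusted p = 0.0175), with an interaction adjusted p of 0.999. Chordc1 rose too (0.63, adjusted p = 0.0371), while Hspa1a (0.28, adjusted p = 0.298) and Dnaja1 (0.34, adjusted p = 0.0994) missed the threshold. The interactions of Chordc1, Hspa1a and Dnaja1 did not pass (limma adjusted p = 0.572, 0.076 and 0.146).

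Spsb1, Tiparp, Cebpd, Myocd and Cyr61 were called in the same test, with differences of 1.25, 1.06, 1.21, 0.86 and 2.18. Per1, which was not called in vehicle, was called here (1.62 ± 0.32, limma adjusted p = 0.0449), with 17.4 ± 1.43 FPKM at 4 h and 9.59 ± 3.54 FPKM at 24 h after AMH, the other way from vehicle. The calls of Errfi1 and Ctgf held under every alternative run for this test, with adjusted p of 0.00016 to 0.0031 and of 5.5e-05 to 0.013. The others were lost under 6 (Jun) to 21 (Cebpd) of 24 alternatives, and the number of genes called ranged from 2 without 4 h library 1 of vehicle to 209 without 24 h library 1 of AMH, leaving out 1 library at a time.

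Against doxorubicin with AMH the test called 14 genes, 11 with a higher log2 change in vehicle (0.0786%) and 3 with a lower one (0.0214%). Among the 11 were Errfi1 (1.58 ± 0.22, limma adjusted p = 0.0125), Spsb1 (1.47 ± 0.24, adjusted p = 0.016) and Banp (0.97 ± 0.16, adjusted p = 0.016). These genes rose in vehicle, and their log2 changes after both agents were 0.17, -0.12 and 0.3. Among the 3 were Lyz1 and Podxl, which fell in vehicle and changed by 0.5 and 0.16 after both agents. The call of Errfi1 held under all 24 alternatives run for this test, while that of Podxl was lost under 1, those of Spsb1 and Banp under 2 each and that of Lyz1 under 9. Errfi1 was at 14.4 ± 3.52 and 16 ± 1.97 FPKM after both agents. Against doxorubicin alone limma called 0 genes, with 1236 at an unadjusted p under 0.05, and none without any single library. After doxorubicin Errfi1 was at 16.9 ± 7.5 FPKM at 4 h and 42.6 ± 15.3 FPKM at 24 h, Cyr61 at 5.06 ± 0.909 and 20.3 ± 4.27 FPKM and Ctgf at 7.93 ± 1.9 and 28.2 ± 7.36 FPKM, each higher at 24 h on average as in vehicle.

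**Figure D5:**
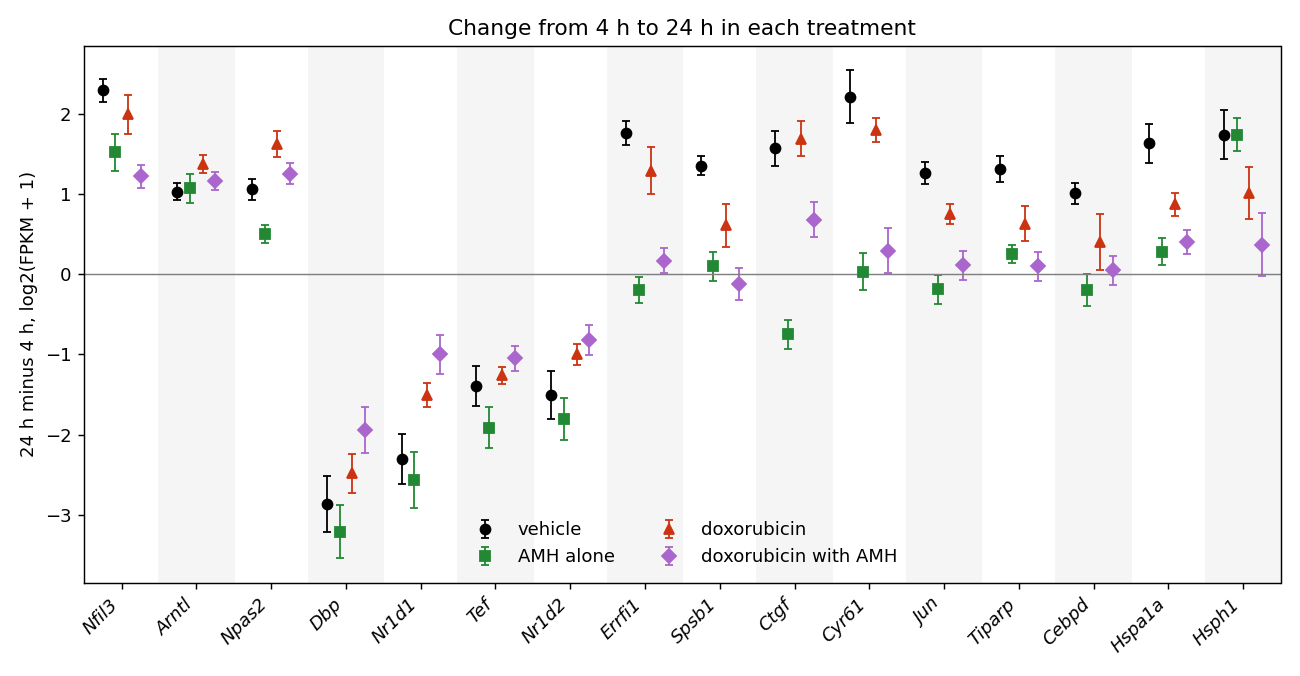
Log2 change from 4 h to 24 h ± SE, on the log2(FPKM + 1) scale, of 16 genes called in vehicle, in vehicle (black) and in the 3 other treatments, each from its own 10 libraries. The 7 clock genes on the left move the same way in all 4 treatments. After AMH alone Errfi1, Spsb1, Cyr61, Jun, Tiparp and Cebpd lie between -0.2 and 0.25, Ctgf at -0.75 and Hspa1a at 0.28. Hsph1 lies at 1.74 there, as in vehicle.

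For the called genes as a whole, those higher at 24 h in vehicle were also higher in 66 of 87 cases after AMH, 85 of 87 after doxorubicin and 65 of 87 after both, where 52.9%, 49.0% and 46.8% of all genes were higher. Those lower in vehicle were lower in 38, 42 and 36 of 46 cases, where 47.1%, 51.0% and 53.2% of all genes were lower. In all 3 other treatments 46 of the 87 and 28 of the 46 kept the vehicle direction, or 52.9% and 60.9%, beside 13.5% and 14% of all genes for the same signs. The median change of the 87 was 0.19, 0.38 and 0.13 in the other treatments in that order, and that of the 46 was -0.23, -0.33 and -0.13. The vehicle medians, 0.82 and -0.77, are of genes chosen for their change in vehicle and are no measure of a larger change there. Of the 87 genes, 7 were called in the same direction after AMH, 22 after doxorubicin and 3 after both, and of the 46 genes 4, 6 and 0.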

How the data were processed

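Total RNA from mouse uterus was sequenced as bulk RNA-seq. The authors deposited 1 table of FPKM values for 54532 genes in 40 libraries, aligned to mm10 per the submitters' processing notes. Aligner, counter, strand setting and annotation: not given in the sources used here. From it, log2(FPKM + 1) was tested with limma 3.58.1 (R 4.3.3, intensity trend, two-sided) over the 13993 genes with an FPKM of 1 or more in at least 5 of the 10 vehicle libraries, with 8 residual degrees of freedom. A log2 change on this scale understates the change of low genes. Interaction terms used the 20 libraries of vehicle and 1 other treatment. Other pseudocounts, filters, scalings, weights, covariates and left-out libraries were tried, and the code was tested on simulated data. Reads were rebuilt from FPKM and gene length for the depth given and for voom.

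The comparison, its members and the gene lists were chosen with earlier results of these data known. The text names the 10 coding genes that rose most and the 10 that fell most among those called whose higher group averaged at least 2 FPKM, the 4 called genes of smallest p in any list (or fewer), and a set of clock, hormone and cell cycle genes. A further 23 genes were chosen after their values were seen. A gene that the rule covers is not reported here. Of the 71 named genes 39 are overlapped by another gene, 12 of them by a coding one. Promoter windows are RefSeq's.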

Additional observations from a re-analysis of the deposited data

Results flagged for a closer look

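Among 220 groups of 5 libraries checked (142 of single genes, 78 of list scores), 10 held a library set apart from the other 4 by Dixon's test, which chance gives in about 1 in 20 groups. Cyr61 was at 81.9 FPKM in 24 h library 2 (others 21.2 to 36.9), and Sprr2f at 2503 FPKM in the same library (others 7.3 to 369). Ciart was lowest there, at 0.362 FPKM (others 0.815 to 1). Greb1 was at 8.08 FPKM in 4 h library 4 (others 4.97 to 5.65), Lrrn3 at 3.57 FPKM in 4 h library 5 (others 1.61 to 2.08), Lyz1 at 1.6 FPKM in 24 h library 3 (others 0.551 to 0.848) and Clock at 7.74 FPKM in 4 h library 2 (others 5.87 to 6.4). The immediate early score was 3.52 in 4 h library 5 (others 3.70 to 3.74), and the nerve and glia score 1.64 in 4 h library 3 (others 1.48 to 1.49) and 1.67 in 24 h library 1 (others 1.29 to 1.40).

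The time change differed between vehicle and AMH alone by the limma interaction test for Errfi1 (1.96), Ctgf (2.32), Cyr61 (2.18), Per1 (1.62), Jun (1.45), Spsb1 (1.25), Cebpd (1.21), Tiparp (1.06), Myocd (0.86) and Palld, a gene of the actin cytoskeleton (0.69), as log2 differences, vehicle minus AMH. Against doxorubicin with AMH it differed for Errfi1 (1.58), Spsb1 (1.47), Nfil3 (1.07), Banp (0.97), Podxl (-0.98) and Lyz1 (-1.47). Of 24 alternatives, the calls against AMH alone were kept in all for Errfi1 and Ctgf and lost in 6 to 21 for the others. Those against doxorubicin with AMH were kept in all for Errfi1 and lost in 1 for Podxl, 2 each for Spsb1 and Banp, 9 for Lyz1 (adjusted p up to 0.15) and 19 for Nfil3 (up to 0.11).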

How the results depend on the processing

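The count of 133 genes depended on the libraries and on how the spread was estimated. It was 45 with no filter, 1191 with all 40 libraries in the fit, 1006 with array weights, 604 with the oestrogen score as covariate, 366 without 24 h libraries 1, 2 and 4, 4377 without 24 h libraries 3 and 5 (chosen after seeing the data), and 12 to 484 leaving out 1 library at a time. The pseudocount (121), a minimum of 5 FPKM (108), scaling by median of ratios (126; 72 higher and 54 lower), robust empirical Bayes (135) and voom (114) moved it by under 1.5 times. Nfil3, Errfi1, Spsb1, Banp, Jun, Amotl2 and Dbp were called under all 22 alternatives. With the replicate number as a block the count was 21, and 12 of 37 named calls passed. Same-numbered libraries correlated over 0.1 in 4 of 5 pairs and none correlated best with its own number, so the numbers were not taken as pairs.

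For the difference from AMH alone, 36 genes became 23 with all 40 libraries, 7 with the replicate block, 786 without 24 h libraries 1, 2 and 4, and 2 to 209 leaving out 1 library. For doxorubicin with AMH, 14 became 48, 3, 9 and 7 to 49. For doxorubicin, 0 became 2 with all 40 libraries and stayed at 0 leaving out 1 library.

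Directions reversed without 24 h libraries 1, 2 and 4 for Gli1 (0.02), Actg2 (-0.09), Igf1 (-0.18), Sprr2f (-1.18), Lcn2 (-1.12), Ltf (-1.19), Amhr2 (0.20) and Esr1 (0.08), with the covariate for Ltf (-0.02) and Esr1 (0.03), and without 24 h library 4 for Esr1 (0.05; the range leaving out 1 library was -0.06 to 0.05). None of these genes was called, and the cause was not tested. FPKM values carry no counting error of their own, so depth limits low genes most.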
